A study of Danio rerio with 8 samples.

Results

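The genes described here are the 5 genes of melatonin synthesis and of pineal identity *aanat1*, *aanat2*, *asmt*, *asmt2* and *bsx*, taken by their symbols from a table of 20409 zebrafish genes. All 5 were measured, and so passed the filter on low values that was applied before the table was made. They stand under the gene identifiers 393677, 30685, 100141344, 568256 and 573364 in that order. RNA came from whole larvae at 4 dpf (days post fertilization) with no treatment. The mutants were *elipsa* larvae, homozygous (-/-) for the tp49d allele of *traf3ip1*, a gene needed to build cilia, and were recognized by their curled body. The controls were their clutchmates, a mixture of wild-type and heterozygous (+/-) larvae. Each of 4 clutches gave 1 mutant tube and 1 control tube of circa 30 pooled larvae, processed together, so that 1 tube is 1 replicate and values of single larvae were not measured. The 8 libraries are named by group and clutch number, for example mutant 4 and control 4 for those of clutch 4.

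Melatonin is made from serotonin in a pair of steps. Serotonin N-acetyltransferase, encoded in fish by *aanat1* and *aanat2*, acetylates serotonin, and acetylserotonin O-methyltransferase, encoded by *asmt* and its paralog *asmt2*, methylates the product. In zebrafish, *aanat2* is the form of the pineal organ, a light-sensing part of the dorsal forebrain, whereas *aanat1* is known mainly from the retina. The *aanat2* transcript of the zebrafish pineal organ follows a daily rhythm set by its own circadian clock and is abundant at night. *bsx* encodes a homeodomain transcription factor that zebrafish need to form the cells of the pineal complex and that is also expressed in the hypothalamus.

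A log2 difference is always that of mutants minus controls. Values are normalized log2 CPM. CPM measures counts relative to each library's total, but the sorted values nearly coincide between libraries, as quantile normalization would leave them. CPM on the linear scale are back-transformed from these normalized values. Sequencing depth cannot be read from them and is unknown. A gene was called when its adjusted p was under 0.1 (limma's moderated test across all 20409 genes, Benjamini-Hochberg adjustment). *traf3ip1* itself had 2.36, 1.88, 1.61 and 2.09 log2 CPM in mutants 1 to 4, against 3.03, 2.63, 2.81 and 2.78 in controls 1 to 4, a log2 difference of -0.83 (SE 0.18, adjusted p = 0.0751). All mutants were below all controls. The call was lost when mutant 2, 3 or 4 or control 2, 3 or 4 was left out (highest adjusted p 0.217). In limma's fit with clutch as a block, which pairs the tubes of each clutch, its adjusted p was 0.00679. That fit called 14.3% of all genes. Both libraries of clutch 1 lay above or below all other libraries for 24.7% of all genes, those of clutch 2 for 8.28%, those of clutch 3 for 6.69% and those of clutch 4 for 14.3%.

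The serotonin N-acetyltransferase genes were the members with the largest positive differences. *aanat2* was high in the 4 mutants and in control 4, and low in the other 3 controls. *aanat1* was higher in every mutant than in any control. *asmt* was lower in the mutant of each clutch, while the differences of *asmt2* and *bsx* had intervals that included 0. None of the 5 was called in the comparison of all 8 libraries by limma, in which 1.52% of all genes were called. An unadjusted p under 0.05 was found for 3 of the 5 (*aanat1*, *aanat2* and *asmt*). Of all 20409 genes, 1192 with a positive and 1247 with a negative difference had such a p in the same fit. With clutch as a block, which compares the mutant and control tubes of each clutch, *aanat1* and *aanat2* were called as higher, in a fit that called 14.3% of all genes.

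**Figure D1:**
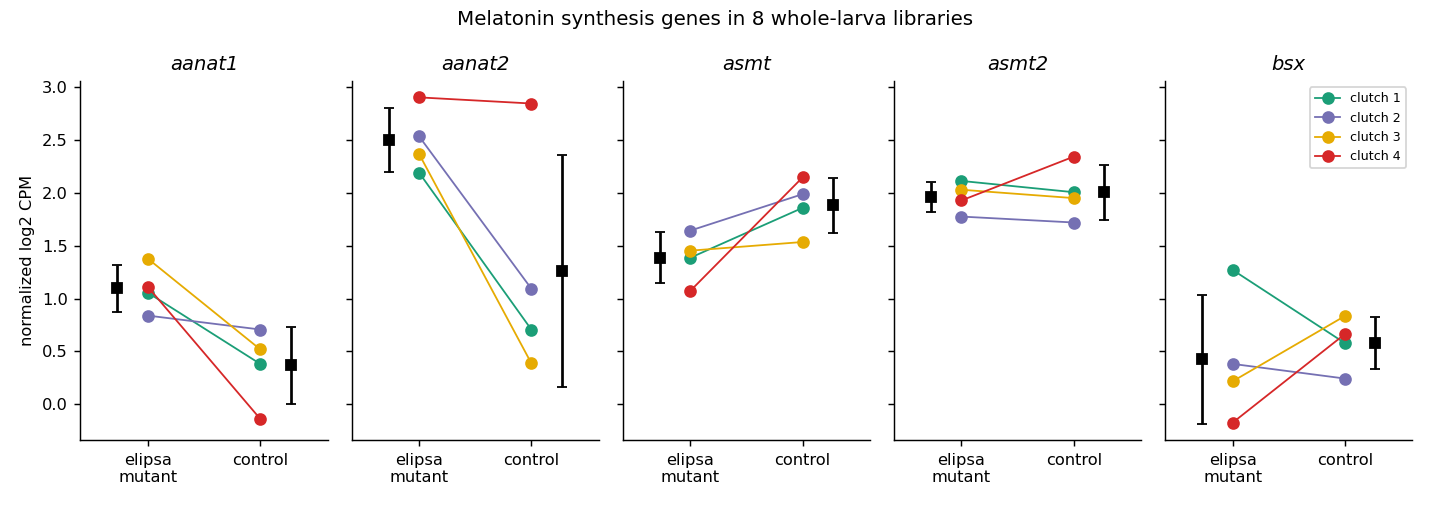
Normalized log2 CPM (vertical axis, shared by the panels) of the 5 genes in *elipsa* mutants (left) and controls (right). Each circle is 1 library, a line joins the mutant and the control of 1 clutch, and black squares with bars are means ± SD (n = 4). Levels of different genes cannot be compared because they are not per gene length. In the *aanat2* panel the line of clutch 4 is almost flat, with 2.90 in mutant 4 and 2.84 in control 4.

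*aanat2* had 2.19, 2.54, 2.37 and 2.90 log2 CPM in mutants 1 to 4, against 0.71, 1.09, 0.39 and 2.84 log2 CPM in controls 1 to 4. On the linear scale these are 4.57 to 7.48 CPM in the mutants, against 1.31 to 2.13 CPM in controls 1 to 3 and 7.18 CPM in control 4. The groups overlapped only through control 4, which was above 3 of the 4 mutants. Means were 2.5 ± 0.30 in mutants and 1.26 ± 1.1 in controls (SD, n = 4 each). The control SD was larger than that of 98.9% of all genes, which were not matched for mean level. The log2 difference was 1.24 (SE 0.46, 95% confidence interval 0.20 to 2.28), or 2.37-fold (1.15 to 4.86). In limma's fit its p was 0.0238 before and 0.332 after adjustment.

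Whether *aanat2* was called without a block turned on control 4. Within clutches 1, 2 and 3 the mutant exceeded its control by 1.49, 1.44 and 1.98 on the log2 scale, and within clutch 4 by 0.06, so that the mutant was higher in 4 of 4 clutches. With clutch as a block the difference of 1.24 had an interval of 0.62 to 1.87 and an adjusted p of 0.0274, a call that was lost in the blocked fit without clutch 3 (0.114). Without control 4 the difference was 1.77 (interval 1.24 to 2.30, adjusted p = 0.0135), in a fit that called 1.13% of all genes. Without both libraries of clutch 4 it was 1.64 (adjusted p = 0.0399). Both of these fits leave out control 4, the only library through which the groups overlapped. A call in them was therefore nearly built in and is no separate support. With 8 libraries and no block, leaving out any 1 of the other 7 libraries gave no call.

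Control 4 lay 2.12 above the mean of controls 1 to 3 for *aanat2* (0.73 ± 0.35, SD, n = 3). This deviation was above those of 99.9% of all genes, and above those of 99.8% of the 2601 genes whose mean level was within 0.5 of that of *aanat2* on the log2 scale. Mutant 4 lay 0.54 above the mean of mutants 1 to 3, a deviation above those of 94.1% of all genes. Both libraries of clutch 4 were therefore higher for *aanat2* than the other 6. The mean of the mutants was 0.34 below control 4 (mutants minus control 4, -0.34).

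The other members did not share this pattern of control 4. For *aanat1* it was the lowest control, 0.67 below the mean of the other 3 (control 4 minus controls 1 to 3, -0.67), a deviation above those of 2.60% of all genes. It was the highest control for *asmt* and *asmt2*, 0.35 and 0.45 above the others, with 89.6% and 93.0% of all genes below these deviations. Among genes of similar mean level the ranks were less extreme, at 8.23% for *aanat1*, 83.2% for *asmt* and 90.1% for *asmt2*. For *bsx* control 4 was 0.11 above the mean of the other controls and below control 3.

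*aanat1* had 1.06, 0.84, 1.38 and 1.11 log2 CPM in mutants 1 to 4, against 0.38, 0.71, 0.52 and -0.14 in controls 1 to 4. The lowest mutant, 0.84, was above the highest control, 0.71, both of clutch 2. Of the 5 members 1 had groups that did not overlap, and of all genes 6.89% did. Means were 1.1 ± 0.22 in mutants and 0.37 ± 0.36 in controls (SD, n = 4 each), which corresponds to 1.79 to 2.60 CPM in mutants and 0.91 to 1.63 CPM in controls. The log2 difference was 0.73 (SE 0.22, interval 0.23 to 1.23), or 1.66-fold, with an adjusted p of 0.235, and 0.0771 with clutch as a block. The blocked call was lost without clutch 1, 3 or 4 (adjusted p 0.137 to 0.240). Within clutches 1 to 4 the mutant exceeded its control by 0.67, 0.13, 0.86 and 1.25. Without control 4 the difference was 0.56 (adjusted p = 0.422).

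**Figure D2:**
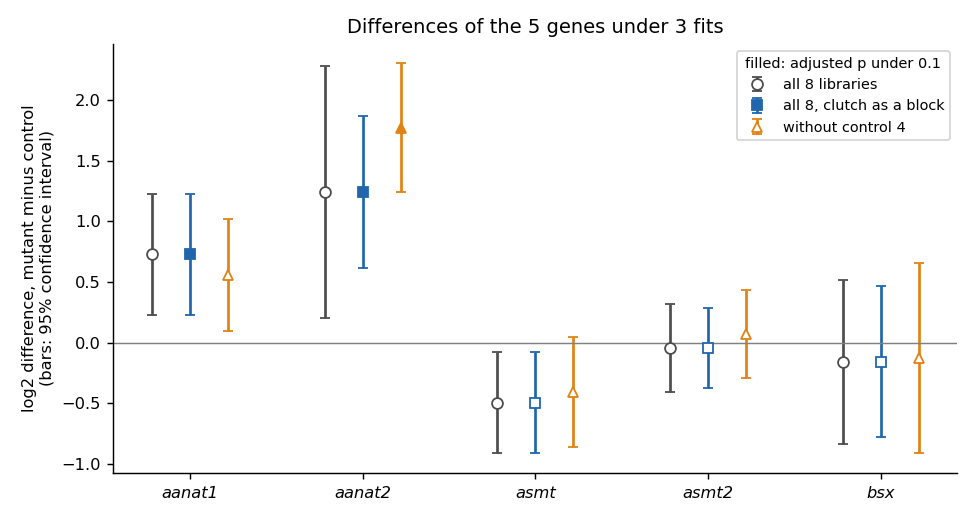
Log2 difference of mutants minus controls (vertical axis) for each gene with its 95% confidence interval, from all 8 libraries (circles), with clutch as a block (squares) and without control 4 (triangles). Filled symbols have an adjusted p under 0.1. For *aanat2* the interval ran from 0.20 to 2.28 with all libraries and from 1.24 to 2.30 without control 4, and the filled symbols are those of *aanat1* with the block and of *aanat2* with the block and without control 4. The fit without control 4 leaves out the only library through which the *aanat2* groups overlapped.

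The second enzyme of the pathway gave lower or like values in mutants. *asmt* had 1.39, 1.64, 1.45 and 1.07 log2 CPM in mutants 1 to 4, against 1.86, 1.99, 1.53 and 2.15 in controls 1 to 4. Mutant 2 was above control 3, so the groups overlapped, but the mutant was below its control in 4 of 4 clutches, with differences of -0.47, -0.35, -0.08 and -1.07. Means were 1.39 ± 0.24 in mutants and 1.88 ± 0.26 in controls (SD, n = 4 each). The log2 difference was -0.49 (SE 0.19, interval -0.91 to -0.08), or 0.710-fold. In limma's fit its p was 0.0244 before and 0.335 after adjustment, and its adjusted p was 0.138 with the block, so *asmt* passed the threshold in neither.

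For *asmt2* the mutants had 2.11, 1.78, 2.03 and 1.93 log2 CPM, against 2.01, 1.72, 1.95 and 2.34 in the controls. Means were 1.96 ± 0.15 in mutants and 2.00 ± 0.26 in controls (SD, n = 4 each), and the log2 difference of -0.04 (SE 0.16, interval -0.41 to 0.32) had an adjusted p of 0.944. A change of more than 0.41 in size on the log2 scale lies outside this interval. The mutant was above its control by 0.11, 0.06 and 0.08 in clutches 1 to 3 and below it in clutch 4 (-0.42), where control 4 was the highest of the 8 libraries.

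*bsx* had 1.27, 0.38, 0.22 and -0.17 log2 CPM in mutants 1 to 4, against 0.58, 0.24, 0.84 and 0.66 in controls 1 to 4. The mutants spanned a wider range than the controls and enclosed it, with mutant 1 the highest and mutant 4 the lowest of all libraries. Means were 0.42 ± 0.61 in mutants and 0.58 ± 0.25 in controls (SD, n = 4 each). The SD of the mutants was larger than that of 96.0% of all genes, which were not matched for mean level. The log2 difference was -0.16 (SE 0.30, interval -0.83 to 0.52, adjusted p = 0.882). Its sign differed between clutches, at 0.69 and 0.14 in clutches 1 and 2 and -0.62 and -0.84 in clutches 3 and 4.

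**Figure D3:**
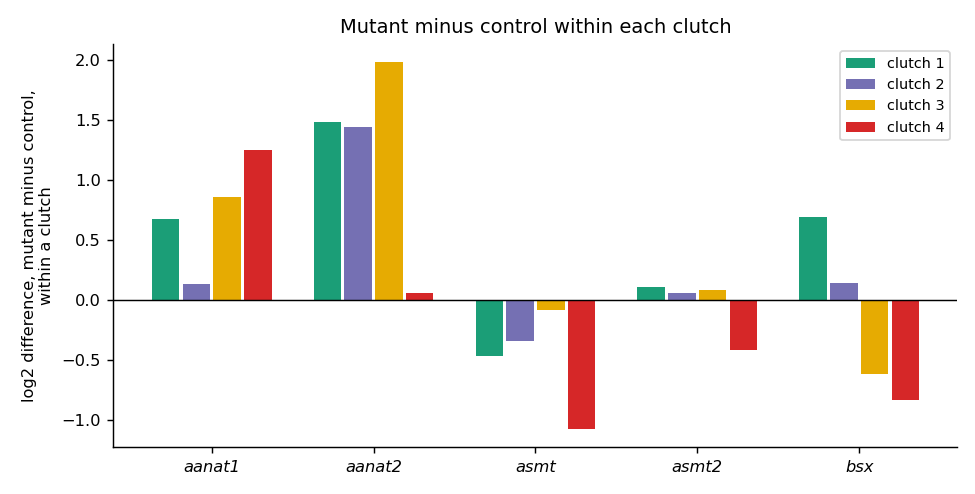
Log2 difference of the mutant minus the control library within each of the 4 clutches (vertical axis), for the 5 genes (horizontal axis). Each bar is 1 clutch with 1 library per group and has no error bar. In clutch 4 (red) the bar of *aanat2* is the shortest of that gene, at 0.06, while those of *aanat1*, *asmt*, *asmt2* and *bsx* are the longest of theirs, at 1.25, -1.07, -0.42 and -0.84.

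Across the 8 libraries the members did not vary together as a group. Pearson's r between *aanat1* and *aanat2* was 0.235, and -0.707 once the group means were taken out. Between *aanat1* and *asmt* r was -0.786, and between *asmt2* and *bsx* it was 0.444, these being the lowest and highest of the 10 pairs. Once the group means were taken out, these pairs had -0.452 and 0.432. The highest was then 0.550, between *aanat2* and *asmt2*, and the lowest was that of *aanat1* and *aanat2*. These are descriptions over 8 points that share groups and clutches. Among 15154 named genes with a mean of at least 1 log2 CPM, those most like *aanat2* were *pkp1b* (r = 0.981), *eloca* (0.959) and *erap1a* (0.953). *pkp1b*, a plakophilin gene of cell junctions, had 4.54 to 4.62 log2 CPM in mutants, against 4.13 to 4.30 in controls 1 to 3 and 4.56 in control 4, so that control 4 lay among the mutants over a narrower span than for *aanat2*. For *aanat1* they were *acd* (r = 0.987), *lhx3* (0.948) and *slc26a11* (0.935). *lhx3*, a LIM homeodomain factor gene, had 2.32 to 2.61 log2 CPM in mutants and 1.89 to 2.46 in controls, with control 4 lowest. The nearest genes were *lrfn4a* (0.961), *zdhhc6* (0.955) and *tmem243a* (0.934) for *asmt*, *sfi1* (0.966), *mmp2* (0.945) and *sh3glb1a* (0.945) for *asmt2*, and *pank1a* (0.985), *pls3* (0.976) and *dnajc7* (0.973) for *bsx*. None of these 15 genes was called in the comparison of all 8 libraries without a block. With it, *acd*, *slc26a11* and *pkp1b* were called as higher (adjusted p = 0.0700, 0.0722 and 0.0849), in a fit that called 14.3% of all genes. These genes were picked for likeness to *aanat1* or *aanat2* in the same libraries, so their calls are no separate support.

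Because *aanat2* is a rhythmic transcript, genes of the circadian clock were set beside it. Of 47 measured clock genes none was called in the comparison of mutants with controls by limma (3 had an unadjusted p under 0.05), and their median log2 difference was 0.00, against 0.03 over all genes. With the block, 1 was called as higher and 8 as lower, in the fit that called 14.3% of all genes. The smallest p belonged to *nfil3-6*, a repressor of the PAR bZip family's targets, with -0.67 (adjusted p = 0.291), and *hlfa*, a PAR bZip gene, with -0.33 (0.346). Both passed with the block, at an adjusted p of 0.0202 and 0.00962.

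The clock genes set clutch 4 apart most often, and clutch 2 next. Both libraries of clutch 4 lay above or below all 6 others for 33 of the 47 clock genes (70.2%), 17 above and 16 below, against 14.3% of all genes. For clutches 1, 2 and 3 the counts were 7, 15 and 4 of 47 (14.9%, 31.9% and 8.51%), against 24.7%, 8.28% and 6.69% of all genes. All 15 of clutch 2 were above the other libraries. The genes given next were chosen after their values were seen. *per1b*, a repressor of the clock, had 4.00 log2 CPM in mutant 4 and 3.71 in control 4, against 6.37 to 8.04 in the other 6 libraries. *nr1d1*, which encodes Rev-erb alpha, had 3.96 in mutant 4 and 4.71 in control 4, against 6.19 to 9.03 in the others. It was also lower in the mutant of 4 of 4 clutches, at -0.52 on the log2 scale (adjusted p = 0.887 without and 0.00229 with the block).

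Clock genes on the high side in clutch 4 included both activators and repressors. *arntl1b*, a Bmal1 gene, had 4.96 log2 CPM in mutant 4 and 5.18 in control 4, against 4.04 to 4.60 in the other 6 libraries. *clocka*, whose protein pairs with Bmal1, had 5.82 and 5.78 in mutant 4 and control 4, against 4.48 to 5.07. *cry1bb*, a cryptochrome gene of the repressor arm, had 7.82 and 7.93 in these libraries, against 4.63 to 6.12, and *nfil3-5* had 8.87 and 9.24, against 6.61 to 7.29. For these 6 genes mutant 4 and control 4 lay on the same side of all other libraries. For *aanat2* they were also the highest 2 of the 8, but mutants 1 to 3 were closer to them than controls 1 to 3 were. The time of day of collection is not given in the sources used here, and its part in the values of *aanat2* was not tested.

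**Figure D4:**
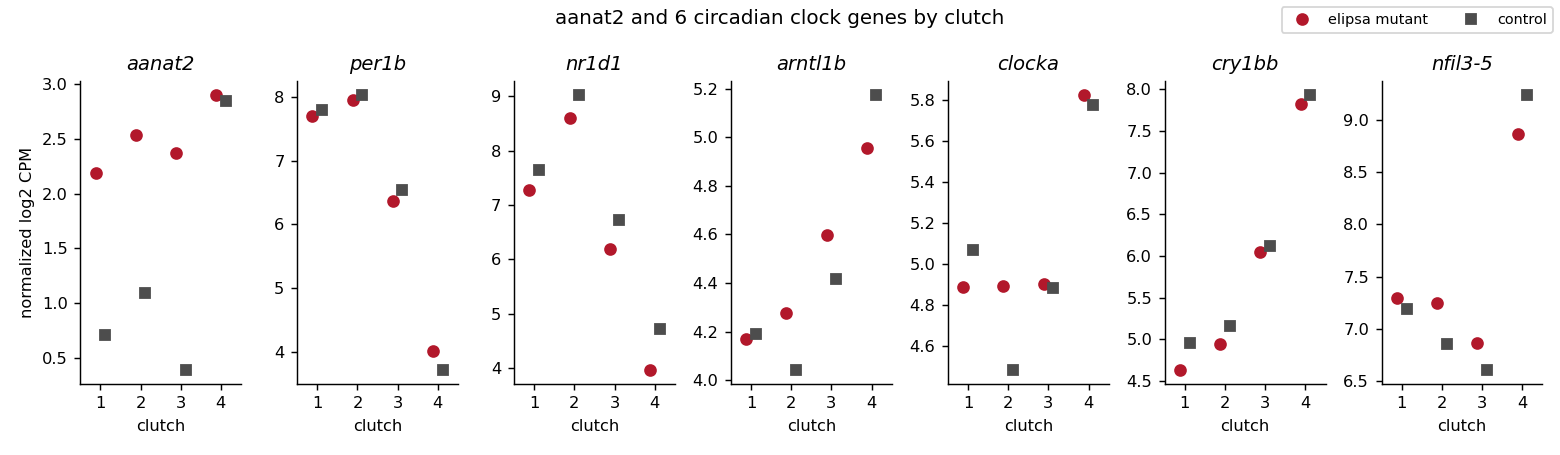
Normalized log2 CPM (vertical axes, a separate scale for each gene) of *aanat2* and 6 circadian clock genes by clutch (horizontal axis), with red circles for *elipsa* mutants and grey squares for controls, 1 library each. For these 6 clock genes both libraries of clutch 4 lie on the same side of all others, and *nr1d1* is lower in the mutant of every clutch, whereas *aanat2* differs between mutant and control in clutches 1 to 3 and has 2.90 and 2.84 in mutant 4 and control 4.

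Serotonin is the substrate of the *aanat* enzymes. In RNA of whole larvae, the values of serotonin genes cannot be assigned to the pineal organ. Of 16 measured genes of serotonin synthesis, transport and breakdown, 12 had a negative log2 difference and 4 a positive one. Of all 20409 genes, 8645 had a negative one. The median was -0.44 against 0.03 over all genes. Called genes were 0 higher and 2 lower, and 0 higher and 7 lower with the block, in fits that called 1.52% and 14.3% of all genes. *tph2*, a tryptophan hydroxylase gene, had 1.65, 1.48, 1.55 and 1.27 log2 CPM in mutants 1 to 4. Controls 1 to 4 had 1.93, 2.15, 2.36 and 2.31, with no overlap. *tph2* fell by 0.70 on the log2 scale (SE 0.15, adjusted p = 0.0849). *qdpra*, which recycles the tetrahydrobiopterin cofactor of the hydroxylases, fell by 0.54 (SE 0.12, adjusted p = 0.0877). The call of *tph2* was lost without any 1 library except control 1 (highest adjusted p 0.259), and that of *qdpra* without any except mutant 1 and control 1 (highest 0.261). With the block both passed, at an adjusted p of 0.0301 for *tph2* and 0.0175 for *qdpra*.

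The other enzymes of the path to serotonin were named after their values were seen. *tph1a* and *tph1b*, the remaining tryptophan hydroxylase genes, had log2 differences of -0.58 and -0.63 (adjusted p = 0.385 and 0.154), and *ddc*, the decarboxylase that forms serotonin, had -0.67 (adjusted p = 0.401). All 3 were lower in the mutant of 4 of 4 clutches, but *ddc* differed by only -0.02 in clutch 1. There *ddc* had 3.41 log2 CPM in mutant 1 and 3.43 in control 1, against 4.56 to 4.81 in controls 2 to 4. All 3 genes passed with the block, at an adjusted p of 0.0528, 0.0359 and 0.0286, in the fit that called 14.3% of all genes. Of 6 listed melatonin receptor genes 2 were measured and neither was called. *mtnr1ab* had 1.64 to 2.36 log2 CPM in mutants and 1.53 to 1.63 in controls (log2 difference 0.38, adjusted p = 0.426), and *mtnr1aa* had 0.80 to 1.24 in mutants and 0.96 to 1.23 in controls (-0.11, adjusted p = 0.842).

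**Figure D5:**
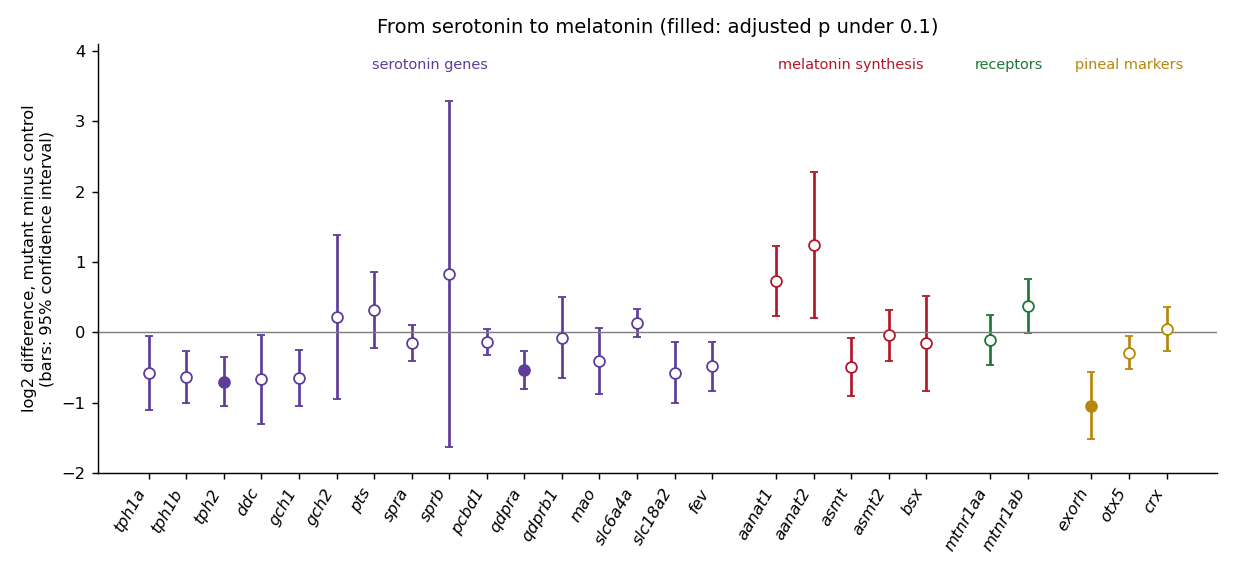
Log2 differences of mutants minus controls (vertical axis) with 95% confidence intervals for 16 serotonin genes (purple), the 5 genes of melatonin synthesis and pineal identity (red), 2 melatonin receptor genes (green) and 3 pineal markers (ochre). Filled symbols have an adjusted p under 0.1 in the comparison of all 8 libraries, namely *tph2*, *qdpra* and *exorh*. The intervals of *aanat1* and *aanat2* lie above 0, at 0.23 to 1.23 and 0.20 to 2.28, and that of *asmt* lies below, at -0.91 to -0.08.

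The label pineal was set beside markers of pineal photoreceptors, of which 3 of 6 were among the genes. The pineal opsins *parapinopsina*, *parapinopsinb* and *parietopsin* were not among them. *exorh*, the pineal-specific rod-like opsin, had 1.68, 1.16, 1.42 and 1.45 log2 CPM in mutants 1 to 4, against 2.78, 2.15, 2.1 and 2.83 in controls 1 to 4, with no overlap. It fell by 1.04 on the log2 scale (SE 0.21, adjusted p = 0.0610), to 0.486 of the control level, and the call was lost without mutant 2, 3 or 4 or control 4 (adjusted p up to 0.174). With the block its adjusted p was 0.00404. *otx5*, a factor that drives pineal circadian genes in zebrafish, had 6.18 to 6.38 in mutants and 6.33 to 6.78 in controls (-0.29, adjusted p = 0.309, and 0.0309 with the block). *crx*, its relative in retinal and pineal photoreceptors, had 7.30 to 7.60 in mutants and 7.20 to 7.82 in controls (0.05, adjusted p = 0.929). Thus *exorh* and the *aanat* genes, which were not called without a block, differed in opposite directions. The difference of *asmt* (-0.49, not called) had the same sign as that of *exorh*. In whole larvae fewer cells of a type and less RNA per cell cannot be told apart. Among all 15 measured pineal opsins and transcription factors, 0 were called as higher and 1, *exorh*, as lower, with a median of 0.05. The RNA was of whole larvae, so the values of these 15 genes cannot be assigned to the pineal organ. With the block 4 were higher and 4 lower, in the fit that called 14.3% of all genes, against 1.52% without it. Among the higher ones was *pax6b* (0.31, adjusted p = 0.390, and 0.0425 with the block).

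Photoreceptors of the retina in fish also express *aanat1* and *asmt*, and transcripts of their markers differed with genotype. Values from whole larvae cannot be assigned to the retina alone. The counts of markers called below stand against 1.52% of all genes called without a block and 14.3% with it. All 12 rod markers measured summed to 574 to 679 CPM in mutants and 1835 to 3826 CPM in controls, with 9 called as lower, 0 as higher and a median log2 difference of -2.28. *gnat1*, rod transducin, had -3.0, *gngt1* -2.83, *grk1a* -2.51 and *pde6a* -2.45 (adjusted p from 0.000468 to 0.00105). The 22 cone markers summed to 1408 to 1524 CPM in mutants and 4100 to 7929 CPM in controls, with 13 called as lower, 0 as higher and a median of -1.56. Among them *opn1sw1*, the ultraviolet opsin, had -2.82, *gnat2* -2.53, *gnb3b* -2.25 and *gngt2b* -2.17 (adjusted p from 0.000390 to 0.00123). With the block 1 cone marker was called as higher and 16 as lower. The higher one was *opn1mw2*, a green opsin gene named after its values were seen, with 3.09, 4.19, 4.56 and 4.68 log2 CPM in mutants 1 to 4, against 2.24, 2.79, 3.49 and 3.57 in controls 1 to 4 (log2 difference 1.11, adjusted p = 0.295, and 0.000433 with the block). The lowest control sums were those of control 1, which for *aanat1*, *asmt* and *aanat2* lay between the other controls. The differences of *asmt* (-0.49) and *aanat1* (0.73) had opposite signs while both marker sums were lower in mutants, and the part of retinal photoreceptors in either was not tested.

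Markers of other retinal cells, of the habenula near the pineal organ and of the hypothalamus, where *bsx* is also expressed, were set beside the members. Of all genes, 1.52% were called without a block and 14.3% with it. Of 16 genes of retinal cells other than photoreceptors 0 were called, with a median of 0.14 and 1 unadjusted p under 0.05, that of *gad1b* (-0.29, adjusted p = 0.408), followed by *prkcaa* (-0.20, 0.428). With the block 2 of them were higher (*tfap2a*, 0.28, and *isl1*, 0.20) and 1 lower (*gad1b*, adjusted p = 0.0114), the first 2 named after their values were seen. The RNA was of whole larvae, so the values of these genes cannot be assigned to the retina. Of 12 habenula markers 0 were called and 2 had an unadjusted p under 0.05, namely *kctd8* (0.75, adjusted p = 0.188) and *slc5a7a* (-0.36, 0.358). With the block *kctd8* was higher (adjusted p = 0.0624), and *slc5a7a* (0.0886) and *aoc1* (-1.88, 8.24e-05), named after its values were seen, were lower. *aoc1* was lowest in clutch 1, at 0.63 log2 CPM in mutant 1 and 2.61 in control 1. So was *fabp2*, a listed marker of other larval tissues, at 5.98 and 6.79. In whole larvae the RNA of *aoc1* cannot be assigned to the habenula. The 17 measured hypothalamic genes of feeding and arousal, also in RNA of whole larvae, had a median of -0.21. Of these, 0 were called as higher and 1 as lower, and 0 and 3 with the block, which called 14.3% of all genes. The 1 called without a block was *npvf*, a sleep-promoting neuropeptide gene of zebrafish, which fell on the log2 scale (-1.28, SE 0.23, adjusted p = 0.0370, and 0.121 without control 2). With the block its adjusted p was 0.00431. *npy*, a feeding peptide gene that in mice depends on Bsx, had 0.90 to 1.24 log2 CPM in mutants and 1.2 to 2.25 in controls (-0.70, adjusted p = 0.251, and 0.0438 with the block), and *crhb*, a stress hormone gene, had -0.57 (adjusted p = 0.311, and 0.0454 with the block).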

How the data were processed

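RNA from 8 tubes of pooled whole larvae was sequenced by the authors, who used SOAPnuke to filter reads, HISAT2 and Bowtie2 to align them and RSEM to estimate gene counts, kept genes with a mean above 1 CPM and applied voom. The submitters' processing notes name GRCz11. The deposited table holds log2 CPM for 20409 genes. Its sorted values nearly coincide between libraries, as quantile normalization would leave them, a step not named in the sources used here, so depth is unknown and differences are relative. A table of the authors' comparison pairs the identifiers with the deposited symbols and holds log2 differences, mean expression, test statistics, p-values and adjusted p-values, none of which was used.

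Mutants (n = 4) and controls (n = 4) were compared by limma 3.58.1 in R 4.3.3 (empirical Bayes with a mean-variance trend, two-sided), adjusted over all genes and called at an adjusted p under 0.1. All genes entered as deposited, without a pseudocount. The fit was tested on simulated data. Standard errors and 95% intervals are moderated ones. Clutch was no term in the main comparison, since the methods name none. The labels number the clutches, and deviations from group means correlated within clutches 1 to 4 at 0.64, 0.325, 0.334 and 0.458, with all 8 libraries closest to the other of their clutch, so the numbers pair the tubes. Alternatives were no trend, robust moderation, vooma weights, library weights, a minimum mean of 1, a pseudocount of 1, re-centring on 19 housekeeping genes, clutch as a block, leaving out each library or clutch, a stricter adjusted p of 0.05 and a minimum absolute difference of 1.

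Members and gene lists were chosen with earlier results of these data known. Of 239 listed symbols, 204 were found as deposited, 11 through a RefSeq table of a later build (used for names only, with no coordinates) and 24 were not among the genes. Named genes were all members, up to 4 called per list by smallest p, up to 2 more where fewer than 2 were called, the pineal markers, the 3 genes most like each member, and *traf3ip1*. Housekeeping genes had 0 of 19 calls (1 unadjusted p under 0.05), and markers of other larval tissues 1 of 24, *myh7*, with a log2 difference of 0.36 (adjusted p = 0.0881, up to 0.266 without mutant 1, 2 or 3 or control 2, 3 or 4, where the call was lost). The next by p were *fabp2* (-1.37, 0.248) and *krt4* (0.38, 0.327). With the block 7 of these 24 were called as higher and 4 as lower, among them *myh7* (0.00383), *krt4* (0.0550) and *fabp2* (0.000494), and 1 of 19 housekeeping genes as lower. Of all genes, the block called 14.3%. Plots came from Python 3.11.15 with matplotlib 3.10.9.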

Additional observations from a re-analysis of the deposited data

Results flagged for a closer look

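No group of 4 libraries of the 5 members had a lone library past Dixon's critical value of 0.829. The nearest was *aanat2* in controls, with a gap of 0.713 of the group's range above the other 3. Among 124 groups checked for all named genes 12 passed it. Many of these genes were chosen by p, by likeness to a member or after their values were seen, and they share clutches. The 12 therefore cannot be set against the 1 in 20 or so that chance gives for independent groups. In mutants the first was *krt4* (1.00), with mutant 3 at 13.30 below 3 equal values of 13.46 log2 CPM. Control 1 also had 13.30, and controls 2 and 4 both had 13.06, so *krt4* took levels shared between libraries. Its ratio thus rests on steps in the normalized values. The other groups in mutants were *clocka* (0.983, mutant 4 high), *npvf* (0.970, mutant 4 low at 0.90 log2 CPM, against 1.64 to 1.67 in the others), *aoc1* (0.877, mutant 1 low), *gnat1* (0.864, mutant 4 high) and *lrfn4a* (0.837, mutant 4 low). In controls they were *kctd8* (0.940, control 3 high), *crx* (0.927, control 1 high), *isl1* (0.885, control 1 high), *fabp2* (0.866, control 1 low), *gnat2* (0.865, control 1 low) and *tph1a* (0.843, control 4 high at 2.28 log2 CPM, against 1.46 to 1.59).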

How the results depend on the processing

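The log2 differences of *aanat1*, *aanat2* and *asmt* kept their sign under all 23, 24 and 24 alternatives, and *asmt* was called in none. Those of *asmt2* and *bsx* changed sign in 4 of 24 and 3 of 23, with no call. *aanat1* and *bsx*, with means under 1, were not in the comparison restricted to a mean of at least 1. A pseudocount of 1 gave smaller differences, of 0.45 for *aanat1*, 0.92 for *aanat2*, -0.37 for *asmt*, -0.04 for *asmt2* and -0.07 for *bsx*, with no call. Clutch as a replicate block called *aanat1* (0.73), *aanat2* (1.24) and so 2 members, and 2927 of all genes against 311 without it. With 1 library or 1 clutch left out and no block, differences ran from 0.55 to 0.93 for *aanat1* and from 0.95 to 1.77 for *aanat2*, with 0 to 1 member called and 80 to 1091 of all genes. With the block and without clutch 1, 2, 3 or 4 in turn, a combination chosen after seeing the data, 1, 2, 0 and 1 members were called and 2879, 1584, 1289 and 1466 of all genes. *aanat2* was called there without clutch 1 (1.16), 2 (1.18) and 4 (1.64), and *aanat1* without clutch 2 (0.93). All genes called were 206 at an adjusted p under 0.05, 168 with an absolute difference of at least 1 and 682 with library weights.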
